A study of Mus musculus with 4 samples.

Results

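Histone genes were followed in mouse bone marrow cultures that differentiated towards macrophages in space or on the ground. The members are the 63 probe sets, out of 45037 that are not controls, whose platform annotation gives at least 1 histone gene symbol of the H1, H2A, H2B, H3 or H4 families. Probe sets were thus chosen by gene symbol, but the family itself was selected on a measured value, the space flight difference of H3c11 on these same arrays. The differences below are therefore descriptions of these arrays. Of the 63 probe sets, 36 name a single gene, 25 different genes in all, and 27 name several genes and are reported apart, since a probe set shared by near-identical copies cannot say which copy was measured.

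Marrow of 21 C57BL/6 mice was pooled, and its cells were cultured in sealed glass barrels at 37 °C with 1.5 µg/ml macrophage colony-stimulating factor, the growth factor that drives marrow cells towards macrophages. The space flight group had its barrels on a space shuttle mission and the ground control group had them in a parallel temperature profile on Earth; strain, growth factor and medium were shared, the donors are described only as adult mice over 8 weeks old, and no allele or further agent separates the groups. Cells were lysed on culture day 15 (flight day 14). Each group has 2 arrays, each from RNA pooled over 2 barrels and taken up for its RNA quality from a larger set of such pools, so the replicates share their donor mice, and their spread is that of cultures and arrays.

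Histones are the proteins around which DNA is wound: H2A, H2B, H3 and H4 form the core of the nucleosome, and H1 binds the DNA that links nucleosomes. Replication-dependent histone genes lie in clusters with many near-identical copies, are transcribed mainly in S phase, and give mRNAs that mostly end in a conserved stem-loop bound by SLBP and not in a poly(A) tail. Replacement variants such as H2A.Z and H3.3 come from genes outside the clusters, give polyadenylated mRNA and are made through the cell cycle, while some histones are made almost solely in germ cells. The labelling here began with an oligo(dT) primer, which anneals to poly(A), so the values refer to histone transcripts that such a primer copied. What share of each gene's transcripts that was is not known from these data.

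The arrays were not alike. RNA integrity was low, with an integrity number of 3 given for every pool used. Signal from the 3′ end of Gapdh exceeded that from its 5′ end 4.09-fold and 15.2-fold in space flight, against 4.13-fold and 3.33-fold in ground control, in the order of array number. For Actb this excess was 3.08-fold and 4.91-fold in space flight, against 2.30-fold and 2.84-fold in ground control. For the Tfrc control the order differed, with 5.50-fold and 3.47-fold in space flight, against 4.96-fold and 7.84-fold in ground control. In bulk cultures, fewer cells of a type and less RNA per cell cannot be told apart. On the normalized log2 scale, the abundant macrophage transcript Lyz2 (lysozyme) had a group mean of 15.25 in space flight and 15.31 in ground control. Ctss (cathepsin S) had one of 15.35 in space flight and 15.54 in ground control. Signal of these transcripts was thus strong in both groups, and for each the space flight values lay below ground control without overlap.

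Histone probe sets stood higher in space flight more often than lower, with replication-dependent H4 and H3 probe sets furthest apart. All values are quantile normalized log2 intensities, with 16 added before taking the logarithm, and all differences are space flight minus ground control. Of the 63 probe sets, 45 had a difference above 0, as had 50.3% of all probe sets, and 18 below, and the median difference was 0.35, beside 0.00477 over all 45037 probe sets. Both space flight values lay above both ground control values for 25 of the 63, or 39.7%, where the same held for 19.1% of all probe sets. Both lay below for 2, or 3.17%, against 19.4% of all probe sets. A difference over 1 was seen for 15 members (23.8%, beside 6.02% of all probe sets), and a difference under −1 for 0 members. Members share target sequences and the family was taken up with results known, so these shares describe the arrays and test nothing.

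No member passed the test. In limma, fitted over all 45037 probe sets with Benjamini-Hochberg adjustment, 0 of the 63 were higher and 0 lower at an adjusted p under 0.05, where 0% of all probe sets were higher and 0% lower. At an unadjusted p under 0.05, 13 were higher and 1 was lower, where 4.14% of all probe sets were higher and 4.60% were lower. These counts rest on 2 arrays per group. With 1 array left out, 29 of the 63 members turned sign under at least 1 choice of array. The overall median level of 6.40 is called the dim limit: 48 of the 63 members reached it, and 3 of these, H3c11, the H2B probe set 1425398_at and the H4 probe set 1431658_at, had a ground control mean below it and so reached it only through space flight. When only the 22519 probe sets at or above the limit were tested, 1 member passed, the H4 probe set 1422947_at (limma adjusted p = 0.0442), where 0.0444% of those probe sets were higher and 0.00444% lower. When that limit was kept and each of 11141 genes was also reduced to its brightest probe set, H3c11 was under the threshold (limma adjusted p = 0.0370), where 0.0449% of genes were higher and 0.0180% lower. This value tests nothing, since the difference of H3c11 chose the family and H3c11 reached the limit only through space flight.

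**Figure D1:**
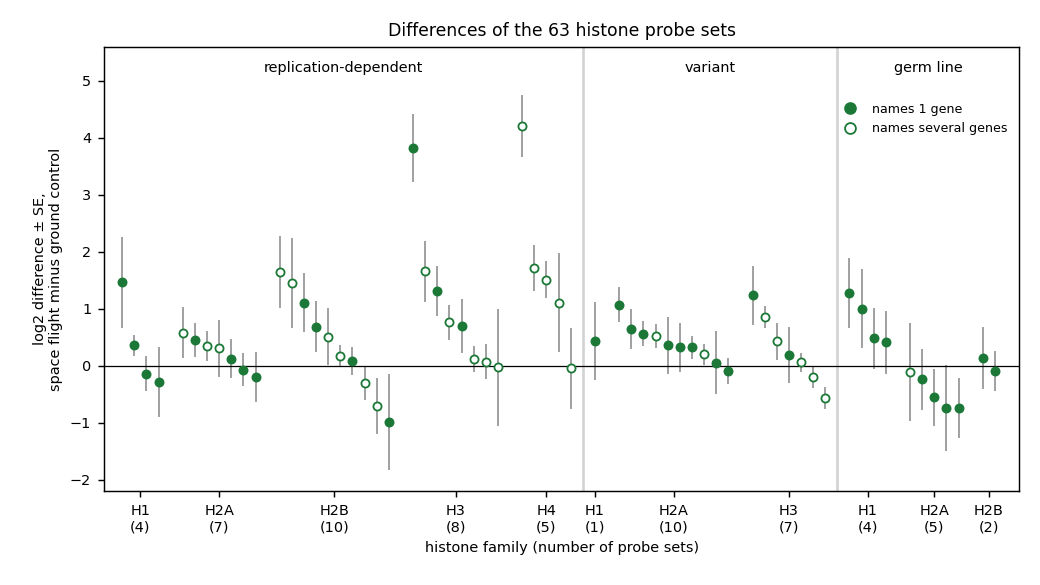
Each point is 1 histone probe set; the vertical axis gives its log2 difference, space flight minus ground control, and the bar is ± the standard error from limma. Probe sets are grouped along the horizontal axis by class and family; filled points name 1 gene and open points several. The H4 probe set at 4.22 and the H3c11 probe set at 3.83 stand apart from the rest, and the germ line group lies on both sides of 0.

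Histone H4 sits at the centre of the nucleosome beside H3, and its many gene copies encode the same protein. The array holds 5 probe sets for it, all naming the same 13 genes, so none can be assigned to a copy. Probe set 1422947_at had deposited intensities of 3060 and 1189 in space flight, against 43.1 and 145 in ground control. On the normalized scale these were 11.57 and 10.32 in space flight and 6.05 and 7.41 in ground control. The groups did not overlap: the ground control values lay on either side of the dim limit of 6.40, and both space flight values lay far above it. The difference was 4.22 ± 0.55 (SE, n = 2 arrays per group), the highest of all 45037 probe sets in rank, and it ran from 3.54 to 4.90 when any 1 array was left out.

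The other H4 probe sets differed less, or not at all in the same way. Probe set 1422948_s_at, drawn from the same transcript record as 1422947_at, had 12.19 and 11.81 in space flight and 10.01 and 10.96 in ground control, a difference of 1.52 ± 0.32 (SE). Probe set 1424854_at had deposited intensities of 993 and 485 in space flight and 175 and 221 in ground control, a difference on the normalized scale of 1.72 ± 0.41 (SE). These too did not overlap between groups. For 1431658_at, however, space flight gave 8.76 and 6.06 and ground control gave 6.63 and 5.97: the difference of 1.11 ± 0.87 (SE) rested on space flight array 1, and without that array it was −0.24. The dim probe set 1428014_at had 5.61 and 5.81 in space flight and 4.99 and 6.52 in ground control, and its difference was −0.04 ± 0.71 (SE). The 5 probe sets had a median of 1.52.

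Histone H3 of the replication-dependent kind, the partner of H4 in the nucleosome core, was read by 8 probe sets with a median difference of 0.74, 7 of them above 0. H3c11, which the RefSeq table places between H1f5 and H2ac22 in the large histone cluster on chromosome 13, had deposited intensities of 1049 and 408 in space flight, against 42.6 and 17.4 in ground control. Its normalized values were 10.03 and 8.76 in space flight and 6.03 and 5.09 in ground control. Ground control lay below the dim limit on both arrays, so the size of the difference, 3.83 ± 0.60 (SE), second in rank among all probe sets, depends on how dim signal is read. It ran from 3.20 to 4.46 with 1 array left out.

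H3c4, another single H3 gene of the chromosome 13 clusters, had 9.02 and 8.38 in space flight and 7.11 and 7.66 in ground control, a difference of 1.32 ± 0.44 (SE). H3c7 had 8.01 and 7.71 in space flight and 6.93 and 7.38 in ground control, a difference of 0.71 ± 0.47 (SE). In neither gene did the groups overlap, though the SE of H3c7 is large against its difference. The probe sets that name 12 H3 genes each, 1427864_at and 1460314_s_at, had 8.87 and 7.76, and 9.27 and 9.54, in space flight, against 6.70 and 6.60, and 8.72 and 8.57, in ground control. Their differences were 1.66 ± 0.53 and 0.76 ± 0.31 (SE), again without overlap. The other 3, which name 8 or 2 H3 genes, had differences of 0.13 ± 0.22, 0.07 ± 0.31 and −0.02 ± 1.03 (SE), and their groups overlapped. The last of these, 1427863_at, comes from the same transcript record as 1427864_at, so probe sets for one record again parted.

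The upstream regions of the single genes that results turn on are shown to let promoter motifs be seen. The first belong to the 3 replication-dependent genes with the largest differences among those without overlap (H3c11, H3c4, H2bc18). The others belong to the replication-dependent linker gene H1f2, whose probe sets differ in sign, and to the variant gene H3f3b. Each is the 250 bases before the annotated start, 5′ to 3′ on the gene's strand, from RefSeq on GRCm38.p6: H3c11 chr13:21783398-21783647 (- strand), H3c4 chr13:23575513-23575762 (+ strand), H2bc18 chr3:96269450-96269699 (+ strand), H1f2 chr13:23738557-23738806 (+ strand) and H3f3b chr11:116024505-116024754 (- strand). Capitals mark 3 motifs, searched on both strands: CCAAT is the box bound by NF-Y, a TATA box was searched as TATAAA, and the octamer bound by the factor Oct-1 is ATGCAAAT.
H3c11: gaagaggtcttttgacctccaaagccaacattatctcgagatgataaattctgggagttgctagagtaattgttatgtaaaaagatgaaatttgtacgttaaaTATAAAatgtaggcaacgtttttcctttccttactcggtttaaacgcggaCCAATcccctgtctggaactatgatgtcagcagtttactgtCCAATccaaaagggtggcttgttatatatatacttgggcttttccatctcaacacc
H3c4: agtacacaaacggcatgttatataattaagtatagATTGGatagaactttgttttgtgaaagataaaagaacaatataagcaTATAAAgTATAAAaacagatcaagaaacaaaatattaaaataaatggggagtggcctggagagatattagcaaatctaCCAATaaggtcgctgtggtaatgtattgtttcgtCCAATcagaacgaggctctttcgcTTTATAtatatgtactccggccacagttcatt
H2bc18: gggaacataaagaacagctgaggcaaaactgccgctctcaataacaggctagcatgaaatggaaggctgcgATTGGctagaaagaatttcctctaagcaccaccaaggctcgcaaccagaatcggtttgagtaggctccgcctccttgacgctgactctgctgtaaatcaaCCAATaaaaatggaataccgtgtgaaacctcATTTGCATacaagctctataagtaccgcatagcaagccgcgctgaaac
H1f2: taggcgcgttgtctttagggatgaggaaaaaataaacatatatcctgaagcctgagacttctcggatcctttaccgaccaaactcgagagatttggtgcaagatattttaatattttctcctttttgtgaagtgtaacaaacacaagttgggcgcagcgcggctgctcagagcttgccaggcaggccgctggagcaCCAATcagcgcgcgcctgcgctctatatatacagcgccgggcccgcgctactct
H3f3b: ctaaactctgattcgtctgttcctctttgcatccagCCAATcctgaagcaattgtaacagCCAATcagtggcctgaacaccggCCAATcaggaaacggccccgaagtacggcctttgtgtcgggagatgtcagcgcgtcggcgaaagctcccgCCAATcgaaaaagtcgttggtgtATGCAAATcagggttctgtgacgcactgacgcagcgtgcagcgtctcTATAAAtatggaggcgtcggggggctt

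H3c11 holds 2 CCAAT and 1 TATAAA, H3c4 holds 3 of each, H2bc18 holds 2 CCAAT and 1 octamer, H1f2 holds 1 CCAAT, and H3f3b holds 4 CCAAT, 1 TATAAA and 1 octamer. Promoter windows were found for 74 of the 80 histone symbols the probe sets name, 75 windows in all. Of the 49 windows of replication-dependent genes, 38 (77.6%) held CCAAT, beside 33.8% of all 32851 windows of the same length, 20 (40.8%) held TATAAA, beside 12.4%, and 9 (18.4%) held the octamer, beside 1.60%. The octamer was found in 5 of 13 H2A and 4 of 12 H2B windows and in 0 of 10 H3 and 0 of 12 H4 windows, while CCAAT was found in 8 of 10 H3 and 3 of 12 H4 windows. A match describes letters anywhere in the window, not binding and not a place near the start. A window without a match says only that these letters are not in it.

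H2B and H2A pair with each other on the outside of the H3 and H4 core. The single-gene probe set of H2bc18 had 7.78 and 7.56 in space flight and 6.42 and 6.69 in ground control, a difference of 1.11 ± 0.52 (SE), and that of H2bc22 had 7.83 and 8.21 in space flight and 7.49 and 7.18 in ground control, a difference of 0.69 ± 0.44 (SE). Neither overlapped between groups, and H2bc18 in ground control lay at the dim limit. Probe set 1425398_at, which names 6 genes, 5 of them H2B copies, had 7.63 and 7.35 in space flight and 5.34 and 6.35 in ground control, a difference of 1.65 ± 0.63 (SE), with ground control below the dim limit. The bright H2B probe sets had small differences and overlapping groups: 1418072_at, for H2bc8, H2bc6 and H2bc4, had 13.63 and 13.99 in space flight and 13.65 and 13.62 in ground control, and 1452540_a_at, naming 11 genes, had 11.27 and 12.14 in space flight and 11.90 and 12.11 in ground control. Their differences were 0.18 ± 0.19 and −0.30 ± 0.29 (SE). Probe set 1452540_a_at comes from the same transcript record as the H2bc22 probe set, 1427762_x_at, and also names H2bc22. Probe sets for a shared record thus parted here too. H2bc21 gave 0.09 ± 0.25 on one probe set and −0.98 ± 0.84 on the other, whose space flight values of 8.30 and 5.45 lay on both sides of the ground control values of 8.01 and 7.70. Of the other probe sets for H2bc8, H2bc6 and H2bc4, 1445565_at stood at 0.52 ± 0.51 and the dim 1440330_at at −0.70 ± 0.50 (SE). The dim probe set 1449482_at, for H2bu2 and a pseudogene copy, stood at 1.45 ± 0.79 (SE), with 5.92 and 7.79 in space flight and 5.77 and 5.03 in ground control, so most of it came from space flight array 2.

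Replication-dependent H2A probe sets had small differences. H2ac19, a gene of the chromosome 3 cluster, had differences of 0.45 ± 0.30 and 0.13 ± 0.35 (SE) on its 2 probe sets, with overlapping groups on both. H2aw had −0.06 ± 0.28 and −0.19 ± 0.44 (SE), and a probe set that names it together with Trim17 stood at 0.35 ± 0.27 (SE). For H2ac19 with its near copy H2ac18, 1438815_at stood at 0.31 ± 0.50 (SE). The probe set for 10 H2A copies, 1438009_at, had 9.48 and 10.98 in space flight and 9.49 and 9.80 in ground control, so its difference of 0.58 ± 0.44 (SE) rested on space flight array 2, where the Gapdh excess was 15.2-fold; without it the difference was −0.16. The part of RNA quality in these values was not tested.

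H1f2 encodes a linker histone of the replication-dependent kind. Its bright probe sets had differences of 0.36 ± 0.18 and −0.13 ± 0.31 (SE). On the first, 1436994_a_at, space flight gave 13.52 and 13.28 and ground control 13.06 and 13.02, with no overlap; on 1416101_a_at the groups overlapped at 13.91 and 13.01 in space flight and 13.86 and 13.32 in ground control. H1f4, another linker histone gene, had 6.47 and 7.79 in space flight and 6.51 and 4.82 in ground control, close to or under the dim limit, with a difference of 1.46 ± 0.80 (SE). Over all 34 replication-dependent probe sets, single and shared, the median difference was 0.41, and against the ground control mean space flight array 1 alone gave 0.45, array 2 alone 0.36. The groups did not overlap for 16 of the 34, all of them higher in space flight, where 19.1% of all probe sets lay above without overlap and 19.4% below.

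**Figure D2:**
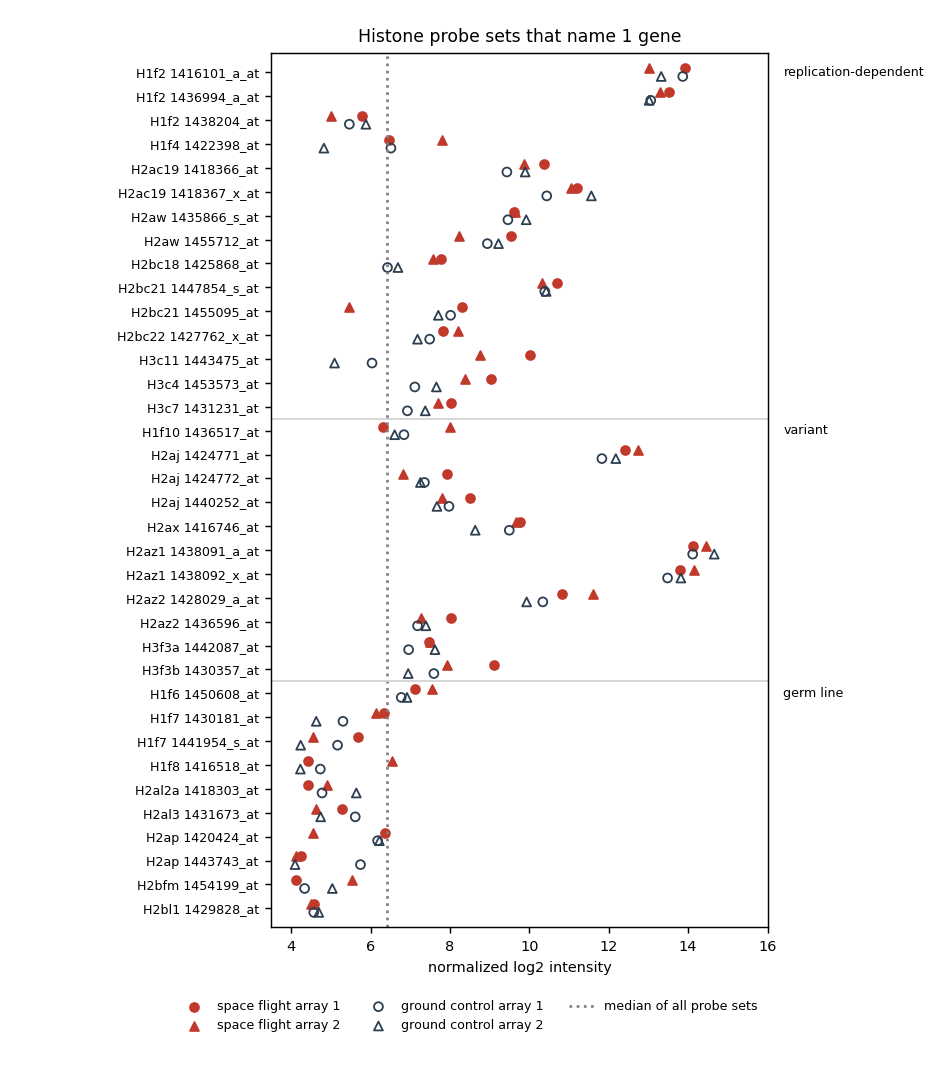
Normalized log2 intensity (horizontal axis) on each array for the 36 probe sets that name 1 gene; filled red symbols are space flight, open dark symbols ground control, circles array 1 and triangles array 2, and the dotted line is the dim limit of 6.40. H3c11 shows the widest gap between groups, and most germ line probe sets lie left of the dotted line.

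Variant histones can take the place of the common forms outside replication, and the linker variant H1f10 is counted among them here. Their 18 probe sets had a median of 0.35, with 15 above 0 and 3 below, and space flight array 1 alone gave a median of 0.39, array 2 alone 0.15. H2az2, which encodes a form of H2A.Z that marks promoters, had 10.82 and 11.60 in space flight and 10.34 and 9.93 in ground control on probe set 1428029_a_at, a difference of 1.08 ± 0.31 (SE) without overlap. Its other probe set gave 0.36 ± 0.50 (SE). H2az1, the more widely studied gene of H2A.Z, was among the brightest: 1438091_a_at had 14.13 and 14.46 in space flight and 14.11 and 14.66 in ground control, a difference of −0.09 ± 0.23 (SE), and 1438092_x_at gave 0.33 ± 0.21 (SE). The probe sets that name H2az1 together with Gm8203 gave 0.53 ± 0.21 and 0.21 ± 0.19 (SE). On the first, 1456032_x_at, the groups did not overlap, with 12.93 and 13.33 in space flight and 12.49 and 12.72 in ground control. On the second they overlapped. H2A.Z signal was thus high in both groups, and the groups of H2az1 overlapped on each of its single-gene probe sets.

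H2ax, whose product is phosphorylated at DNA breaks, had 9.76 and 9.67 in space flight and 9.49 and 8.63 in ground control, a difference of 0.65 ± 0.35 (SE). Without ground control array 2 it was 0.22, so much of it came from that array. H2aj, a mammalian H2A variant, had 12.40 and 12.73 in space flight and 11.83 and 12.18 in ground control on its brightest probe set, a difference of 0.56 ± 0.22 (SE) without overlap, and 0.33 ± 0.43 and 0.06 ± 0.55 (SE) on the other 2. H1f10, a linker variant, gave 0.44 ± 0.68 (SE) with space flight values of 6.31 and 8.00 on either side of ground control.

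The H3.3 genes H3f3a and H3f3b encode the same protein, which is laid down outside replication by the HIRA and DAXX chaperones. H3f3b had 9.11 and 7.92 in space flight and 7.59 and 6.95 in ground control on its single-gene probe set, a difference of 1.24 ± 0.52 (SE), and H3f3a gave 0.19 ± 0.50 (SE). The 5 brighter probe sets that name both genes with 4 other symbols disagreed. Probe set 1455725_a_at had 14.42 and 14.08 in space flight and 13.47 and 13.31 in ground control, a difference of 0.86 ± 0.19 (SE). In 1423263_at the order was turned, with 12.37 and 12.32 in space flight and 12.76 and 13.06 in ground control, a difference of −0.56 ± 0.19 (SE), and 1423262_a_at from the same transcript record stood at −0.20 ± 0.19 (SE). These last are the 2 members whose space flight values both lay below ground control. The remaining pair gave 0.43 ± 0.32 and 0.07 ± 0.16 (SE), so no single direction holds for H3.3.

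**Figure D3:**
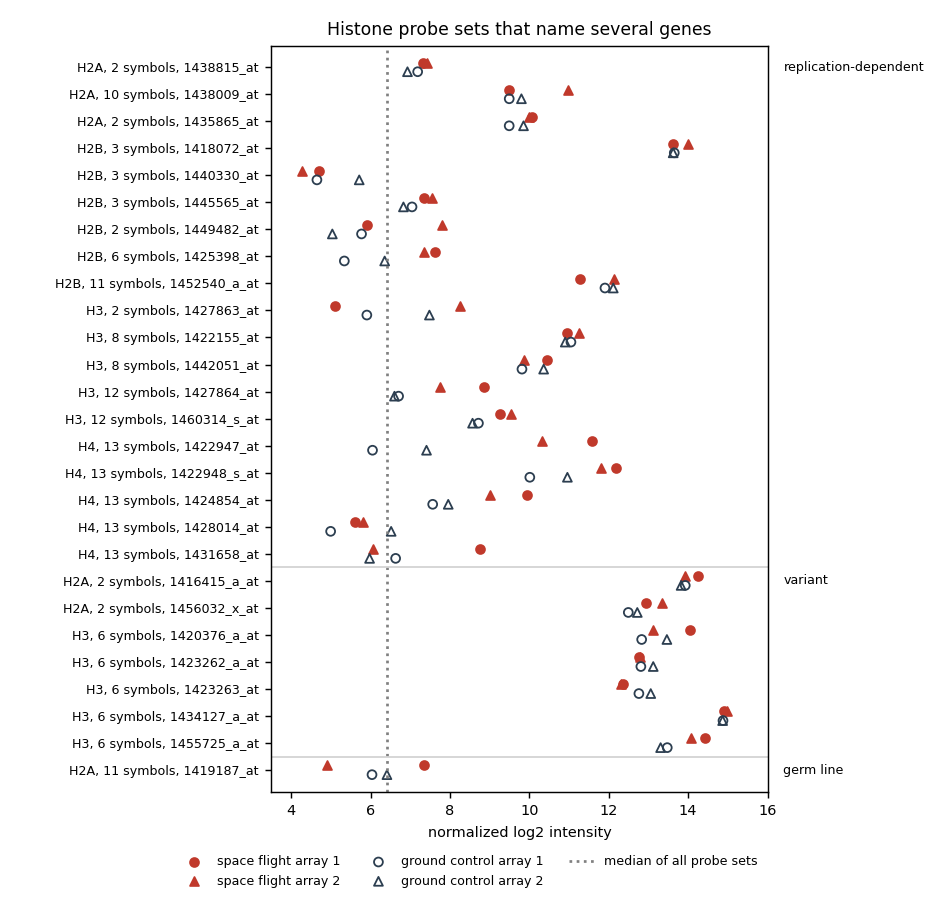
Normalized log2 intensity (horizontal axis) on each array for the 27 probe sets that name several genes, labelled by family, number of symbols and probe set; filled red symbols are space flight, open dark symbols ground control, circles array 1 and triangles array 2. The H4 probe sets 1422947_at, 1422948_s_at and 1424854_at show space flight to the right of ground control on all arrays, while the H3.3 probe sets (6 symbols each) fall on both sides.

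Some histone genes are used mainly in testis or oocytes, where their products replace the common forms. Of their 11 probe sets 10 lay below the dim limit, 5 differences were above 0 and 6 below, and the median was −0.09. It was −0.11 when arrays were shifted to 1 median and 0.095 with values as deposited. In these settings all probe sets had medians of −0.11 and 0.096. H1f6, a testis linker histone, was the one above the limit, with 7.12 and 7.54 in space flight and 6.77 and 6.92 in ground control (difference 0.48 ± 0.53, SE). H1f7 had 6.35 and 6.14 in space flight and 5.30 and 4.63 in ground control on 1430181_at, a difference of 1.28 ± 0.61 (SE), and 0.41 ± 0.56 (SE) on its other probe set. H1f8, the oocyte linker histone, gave 1.01 ± 0.69 (SE) through 1 space flight value, 6.55 on array 2, where array 1 had 4.42. The dim H2A and H2B forms of the germ line, H2al2a, H2al3, H2ap, H2bl1, H2bfm and the H2al1 copies, had differences from −0.74 to 0.14.

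Genes that make, cut and load histones had medians nearer to 0 than the 0.35 of all histone probe sets. Lists count only the brightest single-gene probe set of each gene, so these medians are not like for like. With each gene reduced to its brightest probe set at or above the dim limit, the histone median was 0.56. By the share above without overlap, the processing list did not stand below the histones. Of 17 measured genes of histone mRNA transcription and 3′ end processing, 0 passed limma's test, 10 were above 0 and the median was 0.09. At an unadjusted p under 0.05, 3 (17.6%) were higher and 0 lower, beside 4.14% and 4.60% of all probe sets. Both space flight values lay above ground control for 41.2% and below for 11.8%. The histone shares were 39.7% and 3.17%, and those of all probe sets 19.1% and 19.4%. Slbp, whose product binds the histone stem-loop, had 11.32 and 11.05 in space flight and 10.35 and 9.79 in ground control, a difference of 1.12 ± 0.27 (SE; limma adjusted p = 0.362), but its other probe sets gave 0.03 and −0.34. Sympk, a scaffold of the cleavage complex, stood at 1.31 ± 0.30 (SE; limma adjusted p = 0.354) and −0.23 on another probe set, and Casp8ap2, a component of the histone locus body, at 0.75 ± 0.27 (SE; limma adjusted p = 0.487).

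Among 24 chaperone and deposition genes the median was 0.12, with 0 passing. At an unadjusted p under 0.05, 2 (8.33%) were higher and 0 lower, beside 4.14% and 4.60% of all probe sets. Both space flight values lay above ground control for 25% and below for 16.7%. Supt16, a subunit of the FACT complex that moves nucleosomes during transcription, stood at 0.60 ± 0.22 (SE) and at −0.90 on its other probe set, Supt6, an elongation factor that also binds histones, at 0.63 ± 0.26 and −0.42 on its other probe set, and Znhit1, part of the complex that exchanges H2A.Z, at 0.51 ± 0.24 (SE). Of 33 S phase genes 0 passed limma's test, and 5 (15.2%) were higher and 0 lower at an unadjusted p under 0.05. Both space flight values lay above ground control for 39.4% and below for 12.1%, beside 39.7% and 3.17% of histone probe sets. The differences of 22 were above 0 and the median was 0.28. That median was 0.100 with arrays shifted to 1 median, where that of all probe sets was −0.11 and that of all histone probe sets 0.21. Without the _x_at and _s_at probe sets the S phase median was 0.16. The helicase subunit genes Mcm7 and Mcm4 stood at 1.45 ± 0.37 and 1.09 ± 0.27 (SE), and Rrm2, a subunit of ribonucleotide reductase, at 1.52 ± 0.44 (SE). Other probe sets gave 1.48 to 1.57 for Mcm7, 0.0081 for Mcm4 and 0.38 to 0.48 for Rrm2. Of variants that the symbol rule leaves out, Macroh2a1 stood at −0.03 ± 0.21, Cenpa, the centromere histone, at −0.08 ± 0.56 and Macroh2a2 at 0.38 ± 0.62 (SE); other probe sets of Cenpa gave −0.19 to 0.48.

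Markers of other marrow cells also differed between the groups. Averaged over 14 neutrophil and precursor markers, all above the dim limit, the level was 11.14 and 11.59 in space flight and 10.03 and 10.20 in ground control, with 13 of 14 above 0; the brightest, S100a8 and S100a9, stood at 0.79 ± 0.17 and 1.36 ± 0.30 (SE). Over 11 erythroid markers, 9 of them above the limit, it was 8.11 and 8.24 in space flight and 7.07 and 7.33 in ground control, with 8 of 11 above 0; Slc4a1 stood at 2.17 ± 0.45 (SE), with −1.30 to 0.88 on its other probe sets, and Tfrc at −0.14 ± 0.24 (SE), with −2.14 to −0.66 on its other probe sets. For the 14 macrophage markers, 13 of them above the limit, it was 10.75 and 10.94 in space flight and 10.65 and 10.94 in ground control, 7 above 0 and 7 below. This mean hides a split. Both space flight values lay below ground control for 50% and above for 28.6%, beside 19.4% and 19.1% of all probe sets. At an unadjusted p under 0.05, 4 were lower (Cd68, Adgre1, Itgam, Mrc1) and 2 higher (C1qa, C1qb), or 28.6% and 14.3%, beside 4.60% and 4.14% of all probe sets. C1qa lay below the dim limit, with 5.86 and 6.13 in space flight and 4.32 and 4.70 in ground control. Lymphoid markers, 3 of 9 above the limit, averaged 5.83 and 6.49 in space flight and 5.90 and 5.87 in ground control, with Cd79a at 0.84 ± 0.57 and Cd8a at −0.92 ± 0.54 (SE), but −0.11 to 1.47 on the other probe sets of Cd8a. Stromal markers averaged 6.51 and 7.35 in space flight and 6.89 and 7.03 in ground control, with Pdgfrb at −0.34 ± 0.56 and Dcn at 0.83 ± 0.44 (SE), where their other probe sets gave −0.22 and −0.67. Without overlap, 85.7% of neutrophil markers lay higher and 7.14% lower, and 72.7% of erythroid markers higher and 0% lower. For all histone probe sets these shares were 39.7% and 3.17%. At an unadjusted limma p under 0.05, 85.7% of neutrophil markers were higher and 7.14% lower, and 54.5% of erythroid markers higher and 0% lower. Of all histone probe sets 20.6% were higher and 1.59% lower. The part of neutrophil and erythroid precursors in the histone differences was not tested.

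**Figure D4:**
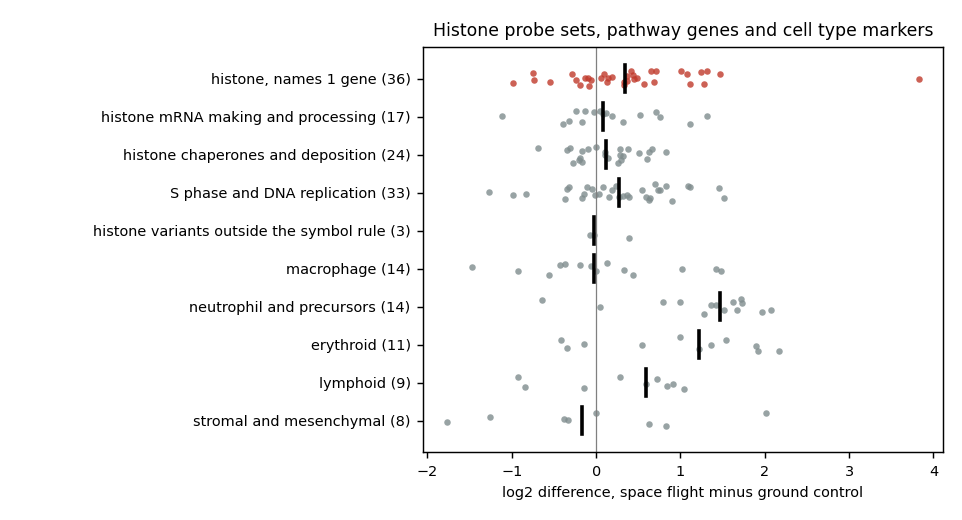
Log2 differences, space flight minus ground control (horizontal axis), for the single-gene histone probe sets and for the genes of each list (vertical axis, number of points in brackets); points are spread vertically only for legibility and the black bar is the median. The histone median of 0.35 covers every single-gene probe set, where the lists hold only the brightest of each gene, so these medians are not like for like. With each gene reduced to its brightest probe set at or above the dim limit, the histone median was 0.56. The S phase list stands at 0.28, the lymphoid list at 0.59, the erythroid list at 1.23 and the neutrophil list at 1.47.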

How the data were processed

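The authors deposited linear intensity values, which the submitters' processing notes credit to GCOS (version not stated); neither summarising algorithm nor build is given. Leaving out 2% of probe sets at either end, every array averages 500.0, which shows that arrays were scaled to a common target. With 2 arrays per group, their number limits the precision.

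From these, log2(intensity + 16) was computed for 45037 probe sets, leaving out 64 controls. Array medians differed by up to 0.385, above a tolerance of 0.1, so arrays were quantile normalized. The groups were set against each other in limma 3.58.1 on R 4.3.3 (lmFit and eBayes with an intensity trend, 2 residual degrees of freedom, two-sided) without a filter, with Benjamini-Hochberg adjustment over all probe sets and a threshold of 0.05. An exact permutation test over 4 arrays reaches 0.333 at the lowest. The procedure was tested on simulated data. A fold on this scale understates changes of dim genes.

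Genes come from the platform annotation; all 80 histone symbols were found in RefSeq (GRCm38.p6) by gene ID, with 0 spelled differently. Classes of histone were assigned by hand from symbols. Named were all members at or above the dim limit, H3c11, the 5 highest and 5 lowest of the others, and, of each list, the 3 strongest pathway genes or 2 brightest markers; list genes use their brightest single-gene probe set. Members, classes and lists were chosen with earlier results of these data known. Alternatives covered array scaling, pseudocounts of 1 and 64, filters, the trend, probe set classes, a replicate block and leaving out each array.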

Additional observations from a re-analysis of the deposited data

How the results depend on the processing

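Calls depended on what was tested. Over all probe sets, 0 were higher and 0 lower at an adjusted p under 0.05; values as deposited gave 4 higher, a pseudocount of 1 gave 6 higher and 1 lower, testing at or above the dim limit 10 and 1, and that filter with each gene reduced to its brightest probe set (the gene setting below) 5 and 2. Of the histone probe sets 1 was higher with the dim filter (1422947_at) and 1 with the gene setting (H3c11, whose difference chose the family and which reached the dim limit only through space flight, so the call supports nothing). Arrays of the same number in both groups share only a number (correlation of their deviations 0.027); with replicate number as a block, 118 probe sets were higher and 113 lower, 4 of them histones (1422947_at, 1422948_s_at, 1455725_a_at and H3c11, the last again a value that chose the family). Histone counts at an unadjusted p under 0.05 were 6 higher and 0 lower with the gene setting, where fewer probe sets are counted, and 0 lower without the trend; with 1 array left out they ran from 7 to 14 higher and from 1 to 4 lower. Members without overlap were 10 higher and 0 lower with the gene setting and 1 lower with values as deposited; with 1 array left out, which leaves fewer values to separate, 34 to 40 and 4 to 13. Under 1 shared array median, where all probe sets moved to −0.11, they were 19 and 3. Neither these counts nor those at an unadjusted p under 0.05 are set beside all probe sets in the same setting. Shares of all probe sets from the main fit cannot stand in, least of all with 1 array left out, where fewer values separate more easily. Whether histones stood apart from all probe sets in these settings was therefore not tested.

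The median of single-gene probe sets was 0.56 with the gene setting, that of replication-dependent ones 0.69 and that of variants 0.56; under 1 median the first of these was 0.20 and the second 0.19. Variants had 0.49 as deposited, 0.29 under 1 median and 0.39 to 0.61 with 1 array left out. Probe sets of several genes had 0.42 as deposited, 0.22 under 1 median, 0.38 with cyclic loess, 0.33 with a pseudocount of 64, 0.43 with the dim filter, 0.26 without the _x_at and _s_at classes and 0.26 to 0.64 with 1 array left out. With 1 array left out, the medians of single-gene and of replication-dependent single-gene probe sets ran from 0.20 to 0.42 and from 0.20 to 0.54. The cause was not tested.

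With 1 array left out, 29 of the 63 members turned sign under at least 1 choice of array, among them 1427863_at (−1.60 to 1.56), 1419187_at (−1.33 to 1.12), H1f10 (−0.41 to 1.28) and the bright H1f2 probe set 1416101_a_at (−0.59 to 0.32). Of the 29, 7 had a difference larger than its own SE. Without space flight array 2, 1438009_at stood at −0.16 (1.33 without array 1), H1f8 at −0.056 (2.07 without array 1) and H2bc21 (1455095_at) at 0.44 (−2.41 without array 1). Without space flight array 1, 1452540_a_at stood at 0.13 (−0.74 without array 2), 1431658_at at −0.24 (2.46) and 1420376_a_at at −0.039 (0.90). Without ground control array 1, H2ap (1443743_at) stood at 0.080, and without array 2 at −1.57. Under 1 shared array median, all probe sets had a median of −0.11, beside which the list medians below stand. The median of the histone processing list was −0.13 under 1 median and ran from −0.087 to 0.24 with 1 array left out, that of chaperones was −0.11 and that of S phase genes 0.100 under 1 median, that of variants outside the rule ran from −0.18 to 0.41 with 1 array left out, and that of macrophage markers was 0.11 as deposited, 0.035 with cyclic loess and −0.15 to 0.11 with 1 array left out.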
